A study of Mus musculus with 15 samples.

Results

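The comparison described here set an ethanol diet against a pair-fed control diet in the livers of mice without Aldh2, the mitochondrial enzyme that oxidises acetaldehyde to acetate. Its members were chosen by genotype and diet alone: 4 livers of ethanol-fed Aldh2-/- mice, numbered 86, 89, 90 and 96 in the labels, and 3 livers of pair-fed Aldh2-/- mice, numbered 1, 2 and 9, together 7 of the 15 livers in the series. The other 8 livers came from WT mice, 5 fed ethanol and 3 pair-fed, and enter the last comparison. They also serve as reference for the Aldh2 level and sequencing depth, and enter a fit of all 4 groups used as an alternative setting. All mice were male C57BL/6 animals of 8 to 10 weeks, and the WT mice were littermates of the mutants. The series design gives every group intraperitoneal carbon tetrachloride (CCl4, a liver toxicant) in olive oil, with 2 injections per week for 8 weeks and liver collected 24 h after the last one. The treatment labels name CCl4 for all 4 groups, whereas the titles name it for the ethanol groups only. If all mice received CCl4, as the design and the treatment labels state, the comparison is of 2 diets in injured livers. If the pair-fed mice did not, every difference below between diets would also hold the effect of CCl4, and the 2 cannot be told apart. Values of the ethanol livers and of the pair-fed livers stood in separate deposited tables, so diet and table cannot be told apart within a genotype. The part of the gene that is deleted in the Aldh2-/- line is not given in the sources used here.

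Ethanol is oxidised in hepatocytes to acetaldehyde, mainly by the alcohol dehydrogenase Adh1 and, after repeated exposure, by the cytochrome P450 enzyme Cyp2e1, and Aldh2 clears most of that acetaldehyde. Cyp2e1 also converts CCl4 into the radical that injures hepatocytes around the central vein. Repeated injury makes hepatocytes divide and turns hepatic stellate cells, the vitamin A-storing pericytes of the liver sinusoid, into contractile myofibroblasts that deposit collagen.

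Expression was given as FPKM, fragments scaled to transcript length and to the mapped reads of the library, so levels of different genes can be compared per length. FPKM values of each of the 7 libraries summed to between 521285 and 607297, and their relative sequencing depths, read from the steps between low values, were between 92.2 and 110.1% of the mean over the 15 libraries. Liver was the labelled tissue, and Alb, the plasma albumin of hepatocytes, was at 33369.5 to 46010.1 FPKM in ethanol livers and 37770.0 to 50335 FPKM in pair-fed livers. Mitochondrially encoded transcripts took 18.2% of summed FPKM in ethanol liver 90 and 6.9 to 10.8% in the other 6 livers, and the group means of 11.3 ± 4.69% (SD, n = 4) and 8.97 ± 1.95% (SD, n = 3) did not differ beyond the spread between livers (exact two-sided permutation p = 0.6). Haemoglobin transcripts, which come from blood cells, took 0.13 to 0.428% in ethanol livers and 0.0517 to 0.123% in pair-fed livers, and the groups did not overlap. The labels number the livers without stating that each came from its own mouse, so p-values measure the spread between these livers.

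Aldh2 itself was low in every mutant liver. It lies at chr5:121566027-121593824 (GRCm38). Its levels were 10.7, 10.4, 11.5 and 8.82 FPKM in ethanol livers 86, 89, 90 and 96, and 6.77, 6.9 and 6.57 FPKM in pair-fed livers 1, 2 and 9; all later lists of values follow this order. WT livers had 634 ± 60.7 FPKM with ethanol (SD, n = 5) and 290.0 ± 16.9 FPKM without (SD, n = 3). Within the mutant livers the residual signal was 1.53-fold higher with ethanol, a log2 change of 0.55 ± 0.12 (SE), and every ethanol liver was above every pair-fed liver (p = 0.0286 by an exact two-sided permutation test, which is the lowest value 35 splits allow).

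Each gene with a mean of at least 0.5 FPKM over the 7 livers was tested with limma on log2(FPKM + 1), and called at a Benjamini-Hochberg adjusted p under 0.05; fold changes below are ratios of mean FPKM, and log2 changes are on the log2(FPKM + 1) scale, which understates changes of low genes. Of 11380 genes, 4568 (40.1%) were called, 1689 higher with ethanol (14.8%) and 2879 lower (25.3%). The median log2 change over all genes was -0.09. After libraries were rescaled to a common median ratio, 4553 of 11377 genes were called (40%), 2244 higher (19.7%) and 2309 lower (20.3%), so the share of higher calls among all calls went from 37 to 49.3%. Single livers carried part of the counts: 1908 genes were lower without pair-fed liver 1, and 1122 were higher without pair-fed liver 2. The shares of 14.8% higher and 25.3% lower are the background against which the lists below are read.

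**Figure D1:**
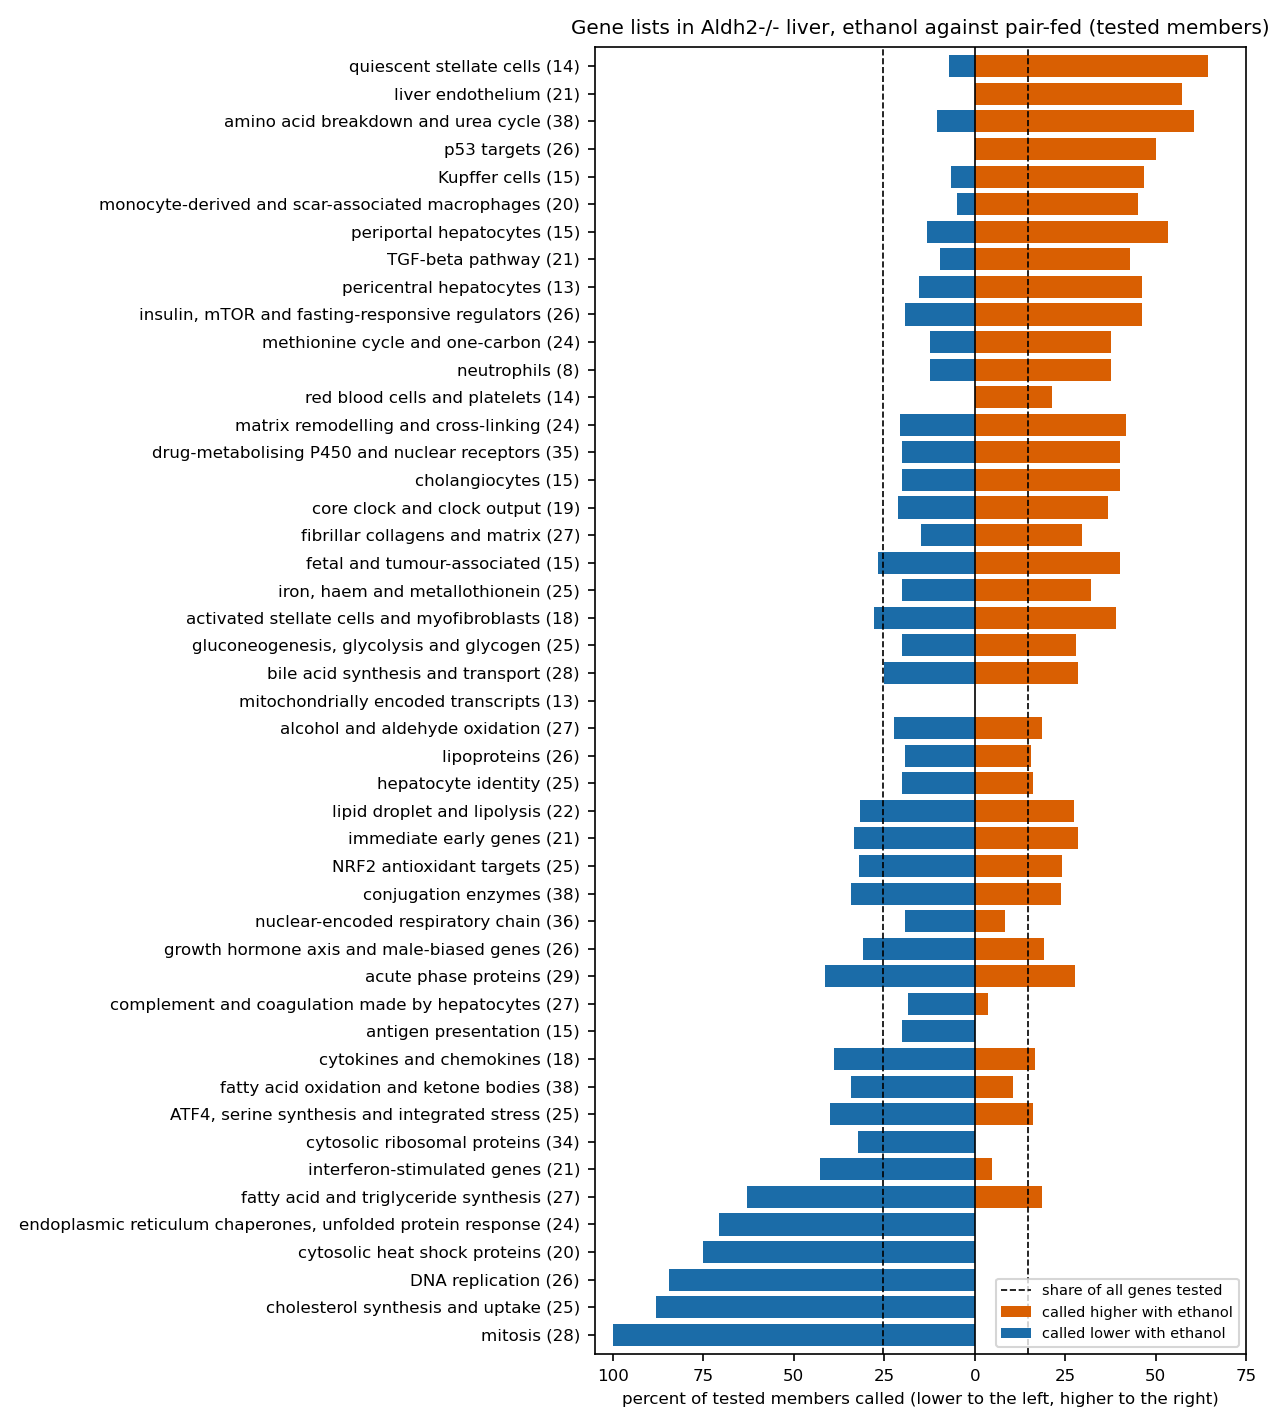
Share of the tested members of each gene list that were called higher (right) or lower (left) with ethanol in Aldh2-/- liver, in percent, for lists with at least 8 tested members (number in parentheses); dashed lines mark 14.8% and 25.3%, the shares over all 11380 genes. Mitosis, with 28 of 28 members lower, stands at the bottom and quiescent stellate cells, with 9 of 14 higher, at the top.

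The 10 largest rises ranged from 18.4-fold to 495-fold among the 4 genes described first, and the rule that chose all 10 required groups without overlap. Cyp2b10 (chr7:25897658-25926624), a P450 enzyme and the classical target of the xenobiotic receptor CAR, was at 39.5, 19.6, 23.8 and 83 FPKM in ethanol livers and 0.0478, 0.204 and 0 FPKM in pair-fed livers. It was close to 0, or listed at 0, in every pair-fed liver, and its 495-fold ratio of means became 330.0-fold without ethanol liver 96, 330.0-fold without pair-fed liver 9 and 1736-fold without pair-fed liver 2 (log2 change 5.07 ± 0.41, SE, adjusted p = 9.38e-05). Got1 (chr19:43499752-43524605), the cytosolic aspartate aminotransferase, was at 1284, 792, 884 and 1721 FPKM against 27.4, 26.8 and 46.4 FPKM. The lowest ethanol liver was far above the highest pair-fed liver, a 34.9-fold rise (log2 change 5.06 ± 0.30, SE, adjusted p = 3.18e-05). Gpcpd1, which splits glycerophosphocholine, was at 57.9, 42.4, 66.3 and 80.3 FPKM against 1.76, 1.33 and 1.96 FPKM, a 36.7-fold rise with narrow groups on both sides (adjusted p = 8.82e-06). Igfbp1, an insulin-suppressed secreted protein that binds insulin-like growth factors, was at 2316, 1053, 855 and 2063 FPKM against 176, 52.5 and 26.9 FPKM. Its 18.4-fold rise was 39.6-fold without pair-fed liver 1, the highest of its group (adjusted p = 6.76e-04).

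Among the other 6 of the 10 largest rises, Ddit4, an inhibitor of the growth kinase mTORC1, was at 315, 216, 257 and 363 FPKM with ethanol and 13.8, 21.9 and 6.86 FPKM without, a 20.3-fold rise (adjusted p = 7.57e-05). Eif4ebp3, which represses cap-dependent translation, was at 513, 357, 625 and 688 FPKM against 24.3, 27 and 28 FPKM (20.7-fold, adjusted p = 1.36e-05). Both act against protein synthesis, and both had no overlap between the groups. Mmp7, a matrix-degrading protease of injured epithelium, was at 68.9, 97.8, 86.5 and 69.8 FPKM against 3.87, 3.22 and 2.2 FPKM (26.1-fold, adjusted p = 8.82e-06). Gnmt, which uses up S-adenosylmethionine by methylating glycine, was at 2409, 1538, 1338 and 2439 FPKM against 82.1, 72.8 and 201 FPKM; its 16.3-fold rise was 24.9-fold without pair-fed liver 9 (adjusted p = 1.33e-04). Cyp17a1, a steroid hydroxylase, rose 20.7-fold (adjusted p = 2.38e-05), and Acmsd, which diverts tryptophan breakdown away from NAD synthesis, rose 21.6-fold (adjusted p = 2.27e-04).

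The 10 largest falls included 2 serum amyloid A genes and 3 secreted regulators of metabolism (Fgf21, Inhbe and Angptl8). Saa2 (chr7:46751833-46754313), an acute phase protein, was at 6.71, 13.4, 58.6 and 13 FPKM with ethanol and 2729, 3432 and 271 FPKM without. Pair-fed liver 9 was the lowest of its group and ethanol liver 90 the highest of its own; the 93.5-fold fall was 194-fold without ethanol liver 90 (log2 change -6.29 ± 0.92, SE, adjusted p = 0.00108). Saa1, whose sequence is nearly identical so that reads may be split between both genes, was at 18.8, 55.2, 154 and 42 FPKM against 3498, 3781 and 407 FPKM, a 37.9-fold fall that was 66.2-fold without ethanol liver 90 (adjusted p = 0.00212). Fgf21 (chr7:45613890-45615490), a liver hormone of nutrient stress, was at 0.137, 0.466, 0.489 and 0.0636 FPKM against 119.5, 58.6 and 22.8 FPKM. All ethanol livers were below 0.5 FPKM, and the 232-fold difference was 141-fold without pair-fed liver 1 (adjusted p = 9.48e-05). Inhbe, a hepatocyte-made activin subunit, was at 0.14, 1.59, 0.419 and 0.109 FPKM against 23.8, 16 and 26.3 FPKM, a 39.1-fold fall that was 98.7-fold without ethanol liver 89 (adjusted p = 7.57e-05). Angptl8, an insulin-induced regulator of lipoprotein lipase, was at 11.1, 10.5, 9.11 and 6.62 FPKM against 191, 223 and 212 FPKM (22.4-fold lower, adjusted p = 8.82e-06). Fabp1, the abundant fatty acid binding protein of hepatocytes, was at 837, 1937, 1481 and 950.1 FPKM against 13560.0, 13867 and 12567 FPKM (10.2-fold lower, adjusted p = 1.00e-04).

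Among the other large falls, Cdca3 is a mitotic gene and is described below. Car3, a carbonic anhydrase of hepatocytes and fat cells, was at 8.62, 4.2, 35.5 and 41.3 FPKM against 150.1, 186 and 299 FPKM, with the ethanol livers spread widely (9.45-fold lower, adjusted p = 0.00352). Fkbp11, a secretory-pathway peptidyl-prolyl isomerase, fell 12-fold (adjusted p = 8.23e-05).

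**Figure D2:**
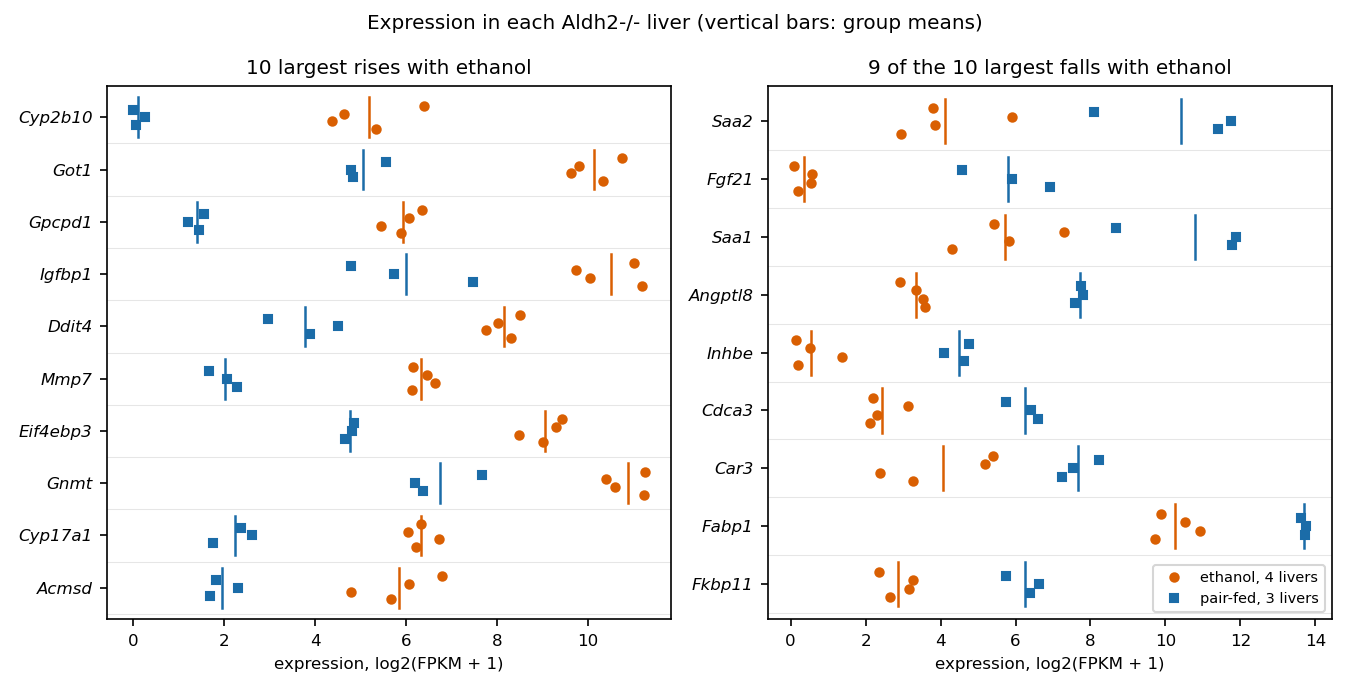
Expression, as log2(FPKM + 1), of the 10 largest rises (left) and 9 of the 10 largest falls (right) in each Aldh2-/- liver; circles are the 4 ethanol livers, squares the 3 pair-fed livers and vertical bars group means. No ethanol liver overlaps a pair-fed liver for any of these genes, which the rule that chose them required.

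Genes of cell division were lower in ethanol livers. All 28 tested mitosis genes fell, against 25.3% of all genes, with a median log2 change of -2.06, and 22 of 26 DNA replication genes fell, with a median of -1.02. After rescaling, 27 of 28 and 22 of 26 were still lower. Cdca3 (trigger of mitotic entry) is shown with 3 further members, Mad2l1 (spindle checkpoint), Ccnb2 (cyclin B2) and Birc5 (survivin), because every tested member of this list fell and these 4 had its smallest p-values. Their promoters, from 250 bases before to 50 after the start of transcription, are given from RefSeq on GRCm38.p6 and in the direction of transcription, with matches to TTTGAA in capitals. TTTGAA is the core of the element through which the DREAM complex represses cell cycle genes in non-dividing cells. Cdca3 lies on the forward strand and its window at chr6:124829926-124830225, Mad2l1 on the forward strand at chr6:66534971-66535270, Ccnb2 on the reverse strand at chr9:70421505-70421804 and Birc5 on the forward strand at chr11:117848987-117849286.
Cdca3: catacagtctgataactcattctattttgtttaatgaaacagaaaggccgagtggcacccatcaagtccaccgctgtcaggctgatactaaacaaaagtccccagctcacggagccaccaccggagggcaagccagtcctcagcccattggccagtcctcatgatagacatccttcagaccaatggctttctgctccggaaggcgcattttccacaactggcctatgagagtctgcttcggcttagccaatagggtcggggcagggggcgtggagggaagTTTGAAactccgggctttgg
Mad2l1: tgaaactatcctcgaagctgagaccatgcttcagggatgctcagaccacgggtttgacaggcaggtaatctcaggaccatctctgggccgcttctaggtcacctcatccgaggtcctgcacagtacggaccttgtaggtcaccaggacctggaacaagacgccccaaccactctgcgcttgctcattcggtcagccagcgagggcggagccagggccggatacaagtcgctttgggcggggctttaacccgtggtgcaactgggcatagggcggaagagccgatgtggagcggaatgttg
Ccnb2: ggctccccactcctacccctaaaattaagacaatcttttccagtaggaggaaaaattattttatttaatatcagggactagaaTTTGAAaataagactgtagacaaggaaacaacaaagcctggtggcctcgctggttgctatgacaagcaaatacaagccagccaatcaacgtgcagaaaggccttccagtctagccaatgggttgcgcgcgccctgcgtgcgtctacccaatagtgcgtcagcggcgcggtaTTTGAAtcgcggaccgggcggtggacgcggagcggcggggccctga
Birc5: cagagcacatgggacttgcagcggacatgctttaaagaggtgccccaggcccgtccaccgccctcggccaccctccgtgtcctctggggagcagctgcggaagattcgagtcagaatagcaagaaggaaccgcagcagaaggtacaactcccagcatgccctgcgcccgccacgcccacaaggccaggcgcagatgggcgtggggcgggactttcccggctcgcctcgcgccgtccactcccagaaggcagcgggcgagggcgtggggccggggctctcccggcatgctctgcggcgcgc
The letters TTTGAA, sought on both strands, stood 30 bases after the start in the Cdca3 window, and 4 bases after and 167 bases before it (position -167) in the Ccnb2 window. The Mad2l1 and Birc5 windows held no match. Of the 28 called mitosis genes 23 had a promoter in the table, and 17 of these (73.9%) held TTTGAA, compared with 20.2% of all 27025 genes with a promoter. The E2F-type letters TTCCCGCC were in 0 of the 23, and in 2.5% of all genes. A match describes these letters and shows no binding.

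Cdca3 was at 3.37, 3.96, 7.8 and 3.61 FPKM in ethanol livers and 95.7, 85 and 52.3 FPKM in pair-fed livers, a 16.6-fold fall (log2 change -3.81 ± 0.28, SE, adjusted p = 7.26e-05). Ethanol liver 90 was the highest and pair-fed liver 9 the lowest of their groups, and the groups did not overlap. Mad2l1 was at 3.8, 3.08, 5.15 and 3.41 FPKM against 28.2, 24.9 and 17.7 FPKM (6.12-fold, adjusted p = 9.46e-05). Ccnb2 was at 5.42, 4.91, 11.3 and 5.55 FPKM against 67.7, 49.9 and 40.4 FPKM (7.74-fold, adjusted p = 1.83e-04). Ethanol liver 90 was again the highest and pair-fed liver 9 the lowest of their groups in Birc5, at 2.02, 1.15, 2.91 and 1.19 FPKM against 18, 15.9 and 9.19 FPKM (7.9-fold, adjusted p = 2.96e-04), and in Ccnb1 (cyclin B1), at 3.44, 2.37, 5.75 and 3.02 FPKM against 34.9, 28.4 and 9.87 FPKM (6.69-fold, adjusted p = 0.00212). Mki67, the proliferation marker, was at 0.742, 0.743, 1.42 and 0.67 FPKM against 11.5, 10.9 and 3.67 FPKM (adjusted p = 0.001); it was named after its values were seen. Nusap1, of the spindle, was the member lost after rescaling and lost its call without ethanol liver 86, 89 or 96 or pair-fed liver 1 or 2 (adjusted p = 0.075 to 0.151). In DNA replication the 3 pair-fed livers were closer together for Mcm6, of the replicative helicase, which was at 1.82, 1.99, 2.04 and 1.6 FPKM against 5.77, 5.3 and 5.57 FPKM (2.98-fold, adjusted p = 1.27e-04). Rfc3, of the clamp loader, fell 3.51-fold and E2f8, a repressor made in S phase, fell 12.2-fold. Per liver, the median of the mitosis list relative to the pair-fed mean was between -2.27 and -1.66 in ethanol livers, and 0.57, 0.45 and -1.03 in pair-fed livers 1, 2 and 9.

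**Figure D3:**
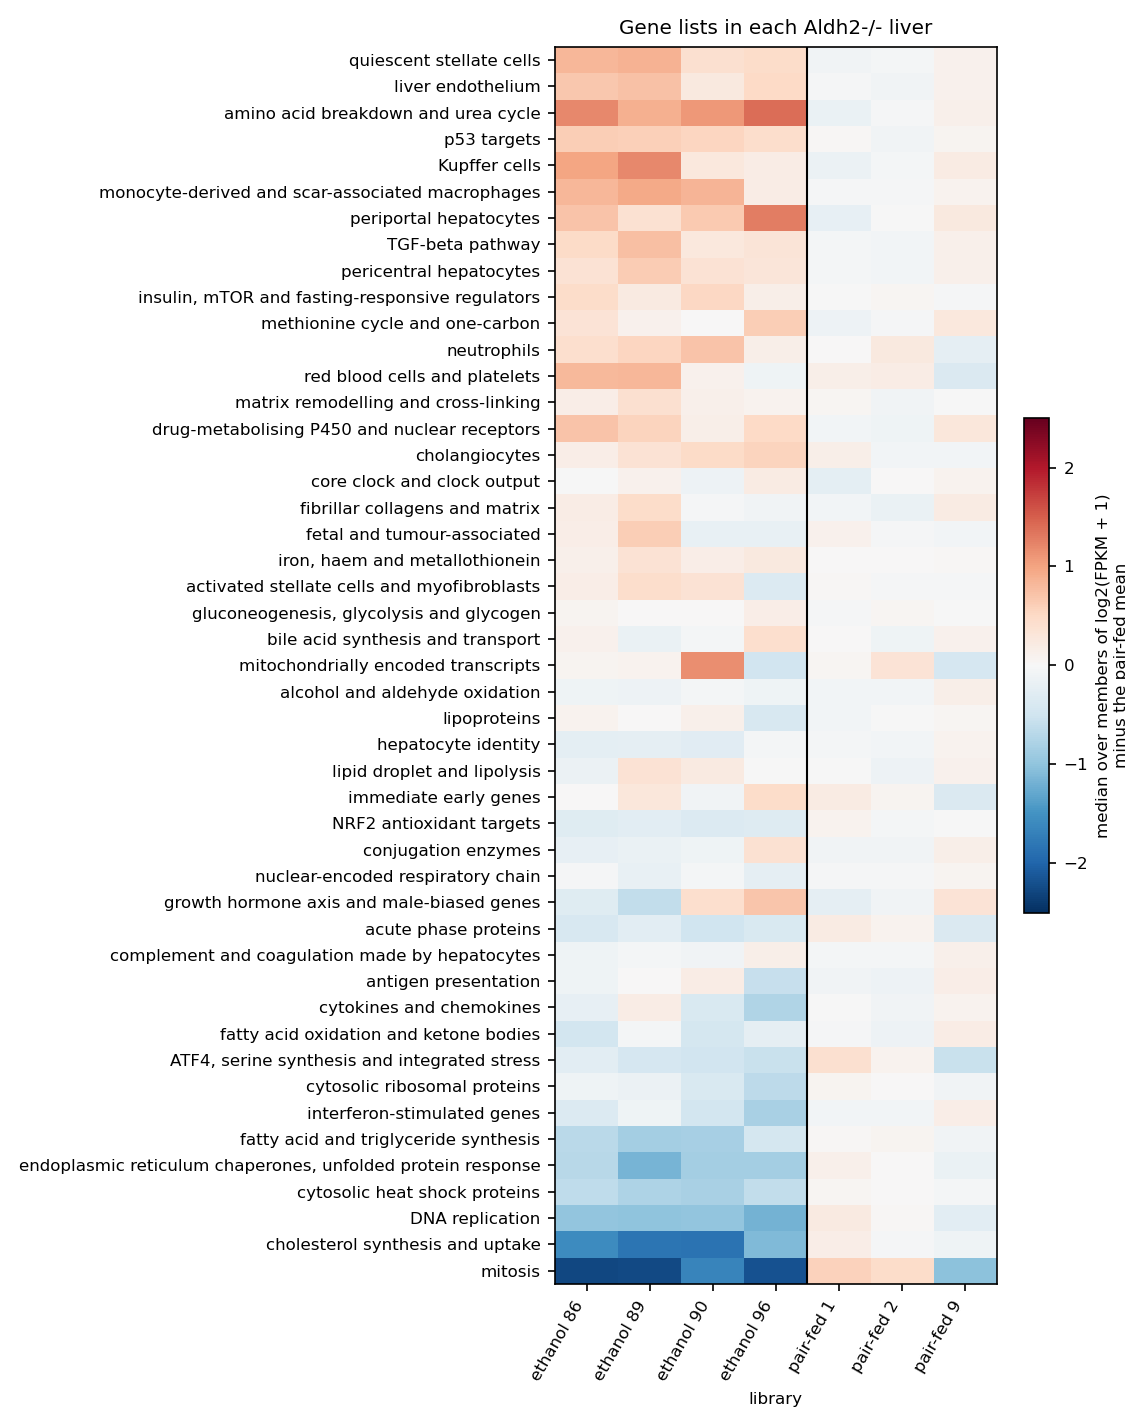
Median over the tested members of each list of log2(FPKM + 1) minus the gene's pair-fed mean, in each Aldh2-/- liver (red higher, blue lower); a black line parts ethanol from pair-fed livers. The mitosis row is below -1.6 in all 4 ethanol livers and at -1.03 in pair-fed liver 9.

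Nearly all genes of cholesterol synthesis and uptake fell. Cells make cholesterol from acetyl-CoA through HMG-CoA and squalene, and the transcription factor Srebf2 switches on the enzymes. Of 25 tested genes 22 fell (88%, against 25.3% of all genes), with a median log2 change of -1.51, and 20 after rescaling. Hmgcs1, which makes HMG-CoA, was at 5.97, 5.35, 7.22 and 9.29 FPKM with ethanol and 84, 93.7 and 51.9 FPKM without, with every ethanol liver far below the lowest pair-fed liver (11-fold, log2 change -3.27 ± 0.23, SE, adjusted p = 6.72e-05). Its promoter is shown because it was the 1 gene among the 15 called members with a promoter entry that held the sterol element TCACNCCAC, a choice made after the values were seen; the element and the letters CCAAT, or ATTGG on the other strand, are in capitals (forward strand, chr13:119690101-119690400, GRCm38.p6, RefSeq).
Hmgcs1: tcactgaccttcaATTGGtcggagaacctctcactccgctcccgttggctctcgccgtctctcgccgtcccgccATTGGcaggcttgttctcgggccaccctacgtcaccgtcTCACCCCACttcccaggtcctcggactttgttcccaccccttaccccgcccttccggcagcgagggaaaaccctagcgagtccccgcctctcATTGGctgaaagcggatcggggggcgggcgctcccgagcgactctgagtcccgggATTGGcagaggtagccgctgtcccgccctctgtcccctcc
TCACNCCAC was present in 6.7% of these 15 members and 1.4% of all promoters, and CCAAT in 14 of 15 (93.3%) and 41.1%. Sc5d, a late enzyme of the pathway, was at 11.3, 10.7, 10.1 and 13.7 FPKM against 80.8, 76.5 and 81.3 FPKM, with both groups tight (6.96-fold, adjusted p = 8.82e-06). Stard4, a cholesterol carrier, was at 1.93, 1.77, 1.29 and 2.86 FPKM against 12.4, 10.6 and 11.4 FPKM (5.86-fold, adjusted p = 9.44e-05).

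Most genes of fatty acid synthesis fell. Of 27 genes of fatty acid and triglyceride synthesis 17 fell (63%, against 25.3%), with a median log2 change of -0.80. The 5 that rose were near the background (18.5%, against 14.8%). After rescaling 14 were lower, and 11 without pair-fed liver 2. Pklr below also stands in the list of glucose metabolism. Fads2, the first desaturase of long polyunsaturated fatty acids, was at 63.5, 66, 67.9 and 87.3 FPKM against 370.2, 280.3 and 362 FPKM (4.74-fold, adjusted p = 7.26e-05), and Fads1, the next desaturase, fell 3.77-fold (adjusted p = 2.83e-04). Pklr, the liver pyruvate kinase, was at 9.4, 17, 9.24 and 15 FPKM against 46.7, 61.9 and 53.2 FPKM (4.26-fold, adjusted p = 2.88e-04). These 3 genes had no overlap between diets. Srebf1, the transcription factor of lipogenesis, fell 2.46-fold, with Srebf1 at 7.41 to 10.7 FPKM in ethanol livers and 17.3 to 33.1 FPKM in pair-fed livers (adjusted p = 0.00404). Fasn, the fatty acid synthase, fell 2.26-fold, with Fasn at 4.31 to 8.36 FPKM in ethanol livers and 11.3 to 15.5 FPKM in pair-fed livers (adjusted p = 0.00357). Scd1, the stearoyl-CoA desaturase, was at 499, 658, 300.0 and 397 FPKM against 264, 506 and 487 FPKM and was not called (log2 change 0.15 ± 0.31, SE, adjusted p = 0.731). The 5 members that rose, named for being few, were Lpin1, Lpin2 and Dgat1, which make triglyceride from phosphatidic acid and diglyceride, the mitochondrial carboxylase Acacb and the desaturase Scd2. Lpin1 was at 94.7, 63.6, 87.5 and 114 FPKM against 8.97, 18.2 and 4.95 FPKM (8.39-fold higher, adjusted p = 3.74e-04), while the call of Scd2 (adjusted p = 0.0468) was lost without ethanol liver 86, 89 or 96 or pair-fed liver 2 or 9 (adjusted p = 0.0652 to 0.15).

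Lipid storage and use were mixed. Pnpla2, the main triglyceride lipase, was at 151, 164, 146 and 170.0 FPKM against 37, 35.9 and 39.9 FPKM, a 4.19-fold rise with narrow groups (adjusted p = 3.18e-05). G0s2, its inhibitor, was at 8.41, 32.3, 29.9 and 12.4 FPKM against 215, 129 and 218 FPKM, a 9.05-fold fall (adjusted p = 7.16e-04). Neither gene overlapped between the diets. Of the 22 droplet and lipolysis genes 7 fell (31.8%, against 25.3%) and 6 rose (27.3%, against 14.8%). Plin2, the droplet coat protein, was at 46.7, 147, 57.2 and 28.4 FPKM against 195, 109 and 162 FPKM, with ethanol liver 89 inside the pair-fed range, and its fall (adjusted p = 0.0452) was 2.23-fold with and 3.53-fold without that liver; the call was lost after rescaling and without ethanol liver 86, 90 or 96 or pair-fed liver 1, 2 or 9 (adjusted p = 0.0588 to 0.147). Cidec, another droplet protein, was at 5.84, 47.4, 16.8 and 4.55 FPKM against 13.2, 5.18 and 8.21 FPKM and was not called (adjusted p = 0.56). In fatty acid oxidation and ketone synthesis 13 of 38 members fell (34.2%, against 25.3%) and 4 rose (10.5%, against 14.8%). Both shares were not far from the background (median log2 change -0.26). Bdh1, which makes the ketone body 3-hydroxybutyrate, was at 9.26, 19.2, 18.4 and 12.5 FPKM against 151, 113 and 151 FPKM (9.35-fold lower, adjusted p = 7.66e-05), and Vnn1, a pantetheinase under the receptor PPARA, fell 4.84-fold (adjusted p = 1.26e-04). The 4 that rose, named for being few, were Cyp4a10 and Cyp4a14, which hydroxylate fatty acids, the coactivator Ppargc1a and the pyruvate dehydrogenase kinase Pdk4. The call of Cyp4a14 was lost without ethanol liver 86, 89 or 96 or pair-fed liver 1 or 2 (adjusted p = 0.0733 to 0.152). The call of Pdk4 was lost without ethanol liver 90 or pair-fed liver 2 or 9 (adjusted p = 0.0543 to 0.0871), and 2 members rose without pair-fed liver 2. Among 26 lipoprotein genes 5 fell (19.2%, against 25.3%) and 4 rose (15.4%, against 14.8%), near the background, with 7 higher without ethanol liver 96. Apoa1, the main protein of HDL, was at 8442, 7359, 11723 and 8079.7 FPKM against 25546, 24047 and 22423 FPKM (2.7-fold lower, adjusted p = 0.00103).

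Most genes of amino acid breakdown rose. The liver strips nitrogen from amino acids and disposes of it as urea, and the carbon skeletons feed glucose synthesis. Of 38 genes of amino acid breakdown and the urea cycle 23 rose (60.5%, against 14.8% of all genes) and 4 fell (10.5%, against 25.3%). The median log2 change was 1.1. After rescaling 23 rose too, while 2 fell then and without pair-fed liver 1 or 2. Asl, which splits argininosuccinate, was at 1134, 775, 1038 and 1252 FPKM with ethanol and 105, 138 and 152 FPKM without (7.98-fold, log2 change 2.98 ± 0.20, SE, adjusted p = 5.48e-05), and Cps1, the entry enzyme of the urea cycle, at 769, 597, 645 and 1538 FPKM against 116, 116 and 203 FPKM (6.12-fold, adjusted p = 7.27e-04). Oat, the ornithine aminotransferase, was at 113, 89.8, 75.4 and 154 FPKM against 10.2, 10.5 and 12.8 FPKM (9.67-fold, adjusted p = 7.26e-05). Ethanol liver 96 was the highest in all 3. Sds, which deaminates serine, was at 956, 647, 1325 and 954 FPKM against 66.2, 143 and 105 FPKM (9.27-fold, adjusted p = 1.61e-04), Tat, the tyrosine aminotransferase, at 1521, 971, 1381 and 2171 FPKM against 199, 284 and 223 FPKM (6.42-fold, adjusted p = 1.99e-04), and Tdo2, the tryptophan dioxygenase, at 1128, 777, 795 and 1968 FPKM against 81.4, 117 and 196 FPKM (8.88-fold, adjusted p = 4.61e-04). Tat and Tdo2 are textbook glucocorticoid-induced genes. Glul, the glutamine synthetase of the last hepatocytes before the central vein, was at 106, 114, 105 and 114 FPKM against 27.9, 31.1 and 33.8 FPKM, with narrow groups (3.55-fold, adjusted p = 4.65e-05). The 4 that fell, named for being few, were Amt and Gcsh of the glycine cleavage system and Kmo and Haao of the kynurenine pathway. Amt fell 4.1-fold; the calls of Kmo and Haao were lost after rescaling and without ethanol liver 86 or pair-fed liver 1, 2 or 9 (Kmo, adjusted p = 0.0521 to 0.0689) or pair-fed liver 1 or 2 (Haao, adjusted p = 0.0625 to 0.0989).

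In the methionine cycle and 1-carbon list 9 of 24 members rose (37.5%, against 14.8%) and 3 fell (12.5%, against 25.3%), with a median log2 change of 0.21. Mat1a, which makes S-adenosylmethionine in adult liver, was at 2438, 1858, 2279 and 2899.5 FPKM against 289, 324 and 429.6 FPKM (6.81-fold, adjusted p = 7.26e-05). Nnmt, which spends it on nicotinamide, was at 230.3, 123, 239.8 and 227 FPKM against 12.2, 21.7 and 19.2 FPKM (11.6-fold, adjusted p = 8.23e-05), and Cth, which makes cysteine from cystathionine, at 912, 525, 533 and 1163 FPKM against 75.9, 78.8 and 109.7 FPKM (8.89-fold, adjusted p = 1.83e-04). With Gnmt above, enzymes that make and enzymes that spend S-adenosylmethionine were both higher. Gamt, the last step of creatine synthesis and another consumer, was at 51, 73.5, 69.4 and 47.7 FPKM against 357, 416 and 389 FPKM, a 6.41-fold fall (adjusted p = 4.65e-05). Mthfd2, a mitochondrial folate enzyme named after its values were seen, fell too, with overlapping groups and a call lost without ethanol liver 89 or 96 or pair-fed liver 1 or 2 (adjusted p = 0.0533 to 0.0938).

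Of 26 insulin, mTOR and fasting-responsive regulators 12 rose (46.2%, against 14.8%) and 5 fell (19.2%, against 25.3%), the latter Inhbe, Fgf21, Igfals, Irs1 and Ghr. Txnip, a glucose-sensing brake on glucose uptake, was at 159.7, 233, 153 and 175 FPKM against 28.1, 36.2 and 25.4 FPKM (6.02-fold, adjusted p = 7.26e-05). Sesn1, a stress-induced mTORC1 inhibitor, was at 19.3, 13.5, 14.2 and 17.4 FPKM against 2.12, 2.32 and 3.25 FPKM (6.28-fold, adjusted p = 7.22e-05). Of 26 growth hormone axis and male-biased genes 5 rose (19.2%, against 14.8%) and 8 fell (30.8%, against 25.3%), not far from the background. Without pair-fed liver 1 or 2, 3 rose. The genes Bcl6, Igfals, Igf1, Ghr, Socs2 and Cish below stand in that list. Bcl6, a repressor that opposes growth hormone signalling through STAT5, was at 0.566, 0.455, 0.718 and 0.487 FPKM against 3.16, 3.67 and 5.44 FPKM (7.35-fold lower, adjusted p = 1.53e-04). Igfals, which carries insulin-like growth factor in plasma, fell 3.1-fold (adjusted p = 3.55e-04), while Igf1 itself was at 95.6, 90.3, 106 and 72.9 FPKM against 71.4, 84.3 and 74.8 FPKM and was not called (adjusted p = 0.248). Ghr, the growth hormone receptor, lost its call after rescaling and without ethanol liver 86 or 89 or pair-fed liver 2 or 9 (adjusted p = 0.0558 to 0.0914). Socs2 and Cish, feedback inhibitors downstream of that receptor, rose 4.95-fold (adjusted p = 9.17e-04) and 3.51-fold (adjusted p = 0.00108). In gluconeogenesis, glycolysis and glycogen 7 of 25 genes rose (28%, against 14.8%) and 5 fell (20%, against 25.3%). Slc37a4, which carries glucose 6-phosphate to its phosphatase, was at 137, 126, 103 and 159.8 FPKM against 28.2, 33.8 and 39.1 FPKM (3.9-fold, adjusted p = 1.63e-04). Of 19 clock genes 7 rose (36.8%, against 14.8%) and 4 fell (21.1%, against 25.3%). Nfil3, a clock output repressor, was at 23.5, 22.9, 18 and 34.3 FPKM against 4.43, 3.14 and 2.3 FPKM (7.5-fold, adjusted p = 1.33e-04), and Nr1d1, the clock repressor REV-ERB alpha, at 7.82, 8.51, 12.2 and 11.2 FPKM against 28.8, 20.9 and 48.5 FPKM (3.29-fold lower, adjusted p = 0.00218); the hour of collection is not given in the sources used here.

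More drug-metabolising genes rose than fell. Of 35 drug-metabolising P450 and nuclear receptor genes 14 rose (40%, against 14.8%) and 7 fell (20%, against 25.3%), with a median log2 change of 0.49. Por, the reductase that supplies electrons to all microsomal P450 enzymes, was at 581, 447, 415 and 635 FPKM with ethanol and 101, 115 and 102 FPKM without (4.91-fold, log2 change 2.26 ± 0.18, SE, adjusted p = 8.12e-05). Cyp3a13 was at 81.5, 84.5, 67.2 and 131 FPKM against 15.8, 13.1 and 21.7 FPKM (5.4-fold, adjusted p = 2.28e-04), and Cyp2a5 at 66.7, 58.8, 58.3 and 119 FPKM against 5.76, 7.36 and 13.4 FPKM (8.57-fold, adjusted p = 2.46e-04). Cyp2a5, Cyp3a13 and Cyp2b10 belong to families whose close copies may share reads. Ethanol liver 96 was the highest in all 4 genes. Among conjugation enzymes 13 of 38 fell (34.2%, against 25.3%) and 9 rose (23.7%, against 14.8%), with 9 lower after rescaling and 8 without ethanol liver 86 or pair-fed liver 1. Gstt3, a glutathione transferase, rose 5.67-fold (adjusted p = 1.22e-04) and Gstm4, another, fell 2.56-fold (adjusted p = 7.30e-04). In bile acid synthesis and transport 8 of 28 genes rose (28.6%, against 14.8%) and 7 fell (25%, against 25.3%), with 5 in each direction without pair-fed liver 2. Abcc3, which exports glucuronides and bile salts across the basolateral membrane, rose 3.54-fold, with Abcc3 at 32.6 to 40.3 FPKM in ethanol livers and 9.61 to 12.4 FPKM in pair-fed livers (adjusted p = 7.80e-05), and Abcb11, the canalicular bile salt pump, fell 2.32-fold, with Abcb11 at 17.4 to 24.1 FPKM in ethanol livers and 45.3 to 58.1 FPKM in pair-fed livers (adjusted p = 6.29e-04). Cyp7a1, the rate-limiting enzyme of bile acid synthesis, was at 12.9, 4.52, 11 and 31.2 FPKM against 2.47, 3.47 and 25.9 FPKM and was not called (adjusted p = 0.415); without pair-fed liver 9 it was 5.02-fold higher with an adjusted p of 0.0423, and its ratio of means was 0.891-fold without ethanol liver 96.

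Within ethanol oxidation the 2 first-step enzymes went opposite ways. Cyp2e1 was at 1426, 1012, 1890.0 and 2098 FPKM against 141, 202 and 553 FPKM, with pair-fed liver 9 well above the other pair-fed livers; it rose 5.38-fold, and 9.36-fold without that liver (adjusted p = 0.00203). Adh1 was at 909.7, 1089, 734 and 872 FPKM against 1829, 1590.0 and 1733 FPKM, a 1.91-fold fall without overlap (adjusted p = 0.00284). Adh4, another alcohol dehydrogenase, was at 6.9, 6.1, 8.13 and 8.55 FPKM against 34.6, 33.5 and 38.7 FPKM (4.8-fold lower, adjusted p = 4.20e-05). Acss2, which turns acetate into acetyl-CoA in the cytosol, was at 9.16, 6.55, 7.48 and 16.2 FPKM against 20.7, 24.2 and 12.6 FPKM with ethanol liver 96 inside the pair-fed range, and its call (adjusted p = 0.0369) was lost after rescaling and without ethanol liver 86, 89 or 90 or pair-fed liver 1 or 2 (adjusted p = 0.0755 to 0.137). Of 27 alcohol and aldehyde oxidation genes 6 fell (22.2%, against 25.3%) and 5 rose (18.5%, against 14.8%), near the background. Those that rose were Cyp2e1, the folate enzyme Aldh1l1 (2.7-fold), the mitochondrial Acss3 (2.86-fold) and the aldo-keto reductases Akr1b7 (3.76-fold, adjusted p = 0.143 in the fit of all 4 groups) and Akr1b8 (2.51-fold, adjusted p = 0.0523 without pair-fed liver 1). Aldh1a7, an aldehyde dehydrogenase, was at 20.8, 29.9, 36.9 and 43 FPKM against 106, 112 and 113 FPKM (3.38-fold lower, adjusted p = 5.44e-04).

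Protein folding genes fell in both the endoplasmic reticulum and the cytosol. Of 24 endoplasmic reticulum chaperone and unfolded protein response genes 17 fell (70.8%, against 25.3%; median log2 change -0.88), and of 20 cytosolic heat shock genes 15 fell (75%; median -0.75); after rescaling 17 and 14 were lower. Pdia4, a disulfide isomerase, was at 25, 25.9, 28.6 and 28.1 FPKM with ethanol and 109, 98 and 80.1 FPKM without (3.55-fold, adjusted p = 7.66e-05), and Sec61b, of the translocation channel, at 83.5, 102, 96.7 and 62 FPKM against 370.2, 324 and 293 FPKM (3.83-fold, adjusted p = 1.88e-04). In the cytosol, Stip1, which links Hsp70 to Hsp90, was at 18.2, 18.6, 20.7 and 19.7 FPKM against 61, 57.4 and 46.2 FPKM (2.84-fold, adjusted p = 1.43e-04). Ethanol livers were below every pair-fed liver in all 3 genes, and close together in Pdia4 and Stip1. Hspa1b, an inducible Hsp70 with a nearly identical neighbour gene that may share its reads, was at 1.82, 1.46, 1.53 and 1.62 FPKM against 5.25, 8.18 and 10.3 FPKM (4.92-fold, adjusted p = 2.70e-04). Fkbp4, an Hsp90 cochaperone of steroid receptors, fell 3.49-fold (adjusted p = 1.63e-04).

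Targets of p53 went the other way: 13 of 26 rose (50%, against 14.8%; median log2 change 0.48), and 13 after rescaling. Cdkn1a, the cell cycle inhibitor p21, was at 106, 131, 93.5 and 125 FPKM against 33, 29.8 and 12.6 FPKM (4.53-fold, adjusted p = 7.16e-04). Btg2, an antiproliferative gene, was at 59.4, 42.1, 29.6 and 73.1 FPKM against 6.66, 4.85 and 3.68 FPKM (10.1-fold, adjusted p = 1.84e-04), and Trp53inp1 at 76.8, 34.3, 44.1 and 50.7 FPKM against 10.4, 11 and 6.91 FPKM (5.46-fold, adjusted p = 3.59e-04). Bbc3, the cell death gene PUMA, rose 3.34-fold, with Bbc3 at 5.43 to 8.89 FPKM in ethanol livers and 2.14 to 2.43 FPKM in pair-fed livers (adjusted p = 4.33e-04). Several members, among them Sesn1 and Btg2, also stand in other lists, so the lists are not independent.

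Antioxidant genes changed in both directions. Of 25 targets of NRF2, the antioxidant transcription factor, 8 fell (32%, against 25.3%) and 6 rose (24%, against 14.8%), not far from the background; Gclc, which limits glutathione synthesis, was at 16.8, 20.7, 17.4 and 14.6 FPKM against 73.5, 63.7 and 59.8 FPKM (3.78-fold lower, adjusted p = 7.74e-05). Of 25 genes of ATF4 and the integrated stress response 10 fell (40%, against 25.3%) and 4 rose (16%, against 14.8%). Psph, the last step of serine synthesis, was at 1.27, 1.74, 1.72 and 1.31 FPKM against 12.9, 12.1 and 6.71 FPKM (6.99-fold lower, adjusted p = 1.69e-04). Those that rose were Ddit4, Cth, the mTORC1 inhibitor Sesn2 (4.12-fold) and the transcription factor Cebpb, whose call (adjusted p = 0.0483) was lost without ethanol liver 86, 89, 90 or 96 or pair-fed liver 1 or 9 (adjusted p = 0.0581 to 0.15). Gdf15, a stress hormone, was at 15.3, 19.3, 34.5 and 12.2 FPKM against 24.9, 21.6 and 11.8 FPKM and was not called (adjusted p = 0.966). In the iron, haem and metallothionein list 8 of 25 genes rose (32%, against 14.8%) and 5 fell (20%, against 25.3%), and 11 and 3 did so after rescaling. The number that fell was 1 without pair-fed liver 1, 2 without ethanol liver 86 or pair-fed liver 2 or 9, and 3 without ethanol liver 89 or 96. Metallothioneins Mt1 and Mt2, metal buffers with near-identical sequences, rose 6.24-fold and 5.77-fold: Mt1 was at 2391, 2706, 3495 and 1737 FPKM against 377, 586 and 279 FPKM (adjusted p = 3.23e-04) and Mt2 at 2657 to 3469 FPKM against 300.2 to 699 FPKM (adjusted p = 2.45e-04). Hamp, the iron hormone hepcidin, was at 4558, 5259, 8282 and 5508 FPKM against 1669, 1858 and 1888 FPKM (3.27-fold higher, adjusted p = 6.68e-04). Alad, an early haem synthesis enzyme, was at 10.5, 13.3, 11.6 and 9.63 FPKM against 51, 55.2 and 47.8 FPKM (4.57-fold lower, adjusted p = 4.07e-05).

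Inflammatory genes changed in both directions, with rises near or below the background share in the cytokine and interferon lists. Of 29 acute phase genes 12 fell (41.4%, against 25.3%) and 8 rose (27.6%, against 14.8%). Without pair-fed liver 1, 4 were lower, and 7 without pair-fed liver 2. Besides Saa1 and Saa2, the other 2 serum amyloid A genes, named after their values were seen, fell less: Saa3 4.85-fold (7.48-fold without ethanol liver 90; adjusted p = 0.0124, lost without pair-fed liver 1, 0.0551) and Saa4 2.54-fold (adjusted p = 0.0016). Lcn2, the iron-scavenging lipocalin, was at 111, 462, 285 and 131 FPKM against 979, 986 and 389 FPKM with overlapping groups, and its call (adjusted p = 0.0241) was lost without ethanol liver 86 or 96 or pair-fed liver 1 or 2 (adjusted p = 0.0556 to 0.0924). Lbp, which presents bacterial lipopolysaccharide, rose 2.39-fold, with Lbp at 58.6 to 82 FPKM in ethanol livers and 25.6 to 37.6 FPKM in pair-fed livers (adjusted p = 9.12e-04), and so did Cd14, its coreceptor and a marker of macrophages, at 20.4, 15.9, 14.4 and 12.3 FPKM against 10.9, 8.2 and 4.85 FPKM (1.97-fold, adjusted p = 0.0157, and 0.0507 without the filter on low values). Among 18 cytokines, chemokines and adhesion molecules 7 fell (38.9%, against 25.3%) and 3 rose (16.7%, against 14.8%). Cxcl1, the neutrophil attractant, was at 1.52, 1.18, 2.14 and 1.1 FPKM against 23.8, 13.8 and 9.8 FPKM (10.6-fold lower, adjusted p = 1.95e-04), and Icam1, an adhesion molecule, fell 1.91-fold (adjusted p = 0.00241). Vcam1, another, was at 30.7, 39.2, 22.3 and 17.6 FPKM against 9.43, 7.88 and 10.0 FPKM (3.01-fold higher, adjusted p = 0.00217). The other 2 that rose were the chemokines Ccl6 (6.68-fold) and Cxcl16, whose call was lost without pair-fed liver 1 or 2 (adjusted p = 0.0625 to 0.0782). Tnf was at 0.0167 to 0.0911 FPKM in ethanol livers and 0.064 to 0.0905 FPKM in pair-fed livers, and Il6 was listed at 0 in all livers but pair-fed liver 1; both were too low to test. Of 21 interferon-stimulated genes 9 fell (42.9%, against 25.3%) and 1 rose (4.76%, against 14.8%). The number that fell was 6 after rescaling and without ethanol liver 90 or pair-fed liver 2, and 5 without pair-fed liver 1. Isg15, a ubiquitin-like protein, fell 3.59-fold, with Isg15 at 4.3 to 12.2 FPKM in ethanol livers and 23.4 to 32.2 FPKM in pair-fed livers (adjusted p = 0.0013). Usp18, which removes Isg15 from proteins, was the 1 member that rose (1.86-fold, adjusted p = 0.0157, and 0.0691 without pair-fed liver 2), with 2 higher without ethanol liver 90.

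More markers of endothelium, Kupffer cells and other macrophages rose than fell. In whole liver a change in the number of cells of a type cannot be told apart from a change in RNA per cell. Of 21 endothelial markers 12 rose (57.1%, against 14.8%; 14 after rescaling), and 6 rose when ethanol liver 86, pair-fed liver 1 or pair-fed liver 2 was left out. Lyve1, a hyaluronan receptor of sinusoidal and lymphatic endothelium, was at 18.5, 14.4, 17.3 and 18.8 FPKM against 1.64, 2.46 and 2.96 FPKM, a 7.33-fold rise (log2 change 2.46 ± 0.16, SE, adjusted p = 4.58e-05). Stab2, a sinusoidal scavenger receptor, was at 4.68, 5.34, 4.68 and 4 FPKM against 2.26, 2.37 and 2.84 FPKM, a smaller rise of 1.87-fold (adjusted p = 0.00244). Of 15 Kupffer cell markers 7 rose (46.7%, against 14.8%) and 1 fell (6.67%, against 25.3%). When any 1 of the same 3 livers was left out 4 rose, and 2 fell without ethanol liver 89. C1qb, a complement subunit of macrophages, was at 187, 227, 151 and 112 FPKM against 55.9, 62.7 and 76.3 FPKM (2.6-fold, adjusted p = 0.00254), and Adgre1, the macrophage surface protein F4/80, at 4.9, 6.38, 2.9 and 3.52 FPKM against 1.43, 1.62 and 1.98 FPKM (2.64-fold, adjusted p = 0.00617). In contrast Timd4, a marker of embryo-derived Kupffer cells, was at 0.589, 0.677, 0.162 and 0.211 FPKM against 1.57, 2.14 and 1.67 FPKM (4.37-fold lower, adjusted p = 0.00139). Of 20 markers of monocyte-derived and scar-associated macrophages 9 rose (45%, against 14.8%), and 15 rose without ethanol liver 96. Only 1, Fabp5, fell (5%, against 25.3%), and 2 fell without pair-fed liver 9. Gpnmb, a glycoprotein of lipid-laden and scar-associated macrophages, was at 89.4, 65.8, 64.7 and 35.8 FPKM against 3.56, 4.52 and 14.9 FPKM; it rose 8.34-fold, and 15.8-fold without pair-fed liver 9 (adjusted p = 9.54e-04). Chil3, a secreted chitinase-like protein of recruited myeloid cells, was at 7.21, 9.21, 8.3 and 3.13 FPKM against 1.03, 2.04 and 0.787 FPKM (5.41-fold, adjusted p = 0.00266). Csf1r, the macrophage growth factor receptor, was at 29, 33.3, 23.1 and 18.3 FPKM against 7.98, 9.57 and 13.4 FPKM (2.51-fold, adjusted p = 0.00296). Of 15 cholangiocyte markers 6 rose (40%, against 14.8%) and 3 fell (20%, against 25.3%). Epcam, an adhesion molecule of bile duct cells, was at 6.82, 10.2, 7.21 and 8.09 FPKM against 2.51, 2.17 and 2.1 FPKM (3.57-fold, adjusted p = 1.96e-04). Cldn4, a tight junction protein, rose 7-fold (11.2-fold without pair-fed liver 1, adjusted p = 3.20e-04), and Krt7, a duct keratin, rose 1.89-fold (adjusted p = 0.00203, and 0.0511 in the fit of all 4 groups). Krt8, Krt18 and Anxa2, which other cells express too, fell (Anxa2 not without pair-fed liver 1, adjusted p = 0.0747).

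Of 15 neutrophil genes 8 were high enough to test. Among these 3 rose (37.5%, against 14.8%) and 1 fell (12.5%, against 25.3%), with 5 higher without ethanol liver 96 and at a common sum. Retnlg rose 3.64-fold (5.55-fold without pair-fed liver 2) and the collagenase Mmp8 rose 5.83-fold. The granule protein Ngp rose 2.21-fold (3.53-fold without pair-fed liver 2), and was not called without pair-fed liver 1 or 9 (adjusted p = 0.0661 to 0.0939). The protease Prtn3 fell 3.83-fold (6.6-fold without ethanol liver 89). Of 14 blood cell and platelet genes 3 rose (21.4%, against 14.8%), and 5 after rescaling. The 3 were Hbb-bs (4.07-fold) and Hbb-bt (5.34-fold), nearly identical beta globin genes, and the red cell anion exchanger Slc4a1. Slc4a1 was at 3.06, 2.47, 0.564 and 0.616 FPKM against 0.138, 0.188 and 0.0407 FPKM and was not called without ethanol liver 89 or pair-fed liver 1, 2 or 9 (adjusted p = 0.0552 to 0.0678). In antigen presentation 3 of 15 genes fell (20%, against 25.3% of all genes) and 0 rose, so this list was not lowered beyond the background. The 3 were the immunoproteasome subunits Psmb8 (1.64-fold) and Psmb9 (2.31-fold) and the peptide transporter Tap2 (1.57-fold).

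Summed over whole marker lists, none of whose genes was at 0 in all 7 livers, the endothelial list of 22 genes was at 226 to 341 FPKM in ethanol livers and 169 to 208 FPKM in pair-fed livers, and the Kupffer cell list of 15 genes at 600.5 to 1256 and 449 to 556 FPKM. The hepatocyte identity list of 25 genes was at 80561 to 97181 FPKM in ethanol livers and 113036 to 116900 FPKM in pair-fed livers, also without overlap. Of its members 4 rose (16%, against 14.8% of all genes) and 5 fell (20%, against 25.3%), near the background. Apoa1, 1 of those that fell, had a mean of 8901 FPKM with ethanol and 24005 FPKM without, while Alb was not called. Blood cell and platelet markers, 17 genes, were at 814 to 2457 FPKM in ethanol livers and 346 to 813 FPKM in pair-fed livers. The cholangiocyte list of 17 genes went the other way, at 452 to 706 FPKM in ethanol livers and 749 to 981 FPKM in pair-fed livers, although more of its members rose than fell. The monocyte-derived and scar-associated macrophage list of 20 genes overlapped, at 687 to 1245 and 728 to 869 FPKM. The part of these shifts in the other results was not tested. Of the 15 periportal hepatocyte markers 8 rose (53.3%, against 14.8%) and 2 fell (13.3%, against 25.3%). Among them Etnppl, which breaks down phosphoethanolamine, rose from 6.94, 10.5 and 14.3 FPKM in pair-fed livers to 224, 82.2, 142 and 247 FPKM (16.4-fold, adjusted p = 1.91e-04). Of the 13 tested pericentral markers 6 rose (46.2%) and 2 fell (15.4%). Among them the ammonium channel Rhbg rose from 0.335, 0.314 and 0.457 FPKM to 2.55, 2.5, 5.78 and 4.21 FPKM (10.2-fold, adjusted p = 6.18e-04). Both zones had more markers higher than lower, though 4 pericentral markers were lower without ethanol liver 89.

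In some housekeeping, hepatocyte and immediate early gene lists the share that fell was not far from the background, while the share that rose varied. Of 34 ribosomal protein genes 11 fell (32.4%, against 25.3%) and 0 rose (0%, against 14.8%). The number that fell was 6 after rescaling, 1 without pair-fed liver 1 and 2 without pair-fed liver 2. Rpl7a, of the large subunit, was at 325, 348, 282 and 292 FPKM against 497, 478 and 486 FPKM (1.56-fold, adjusted p = 0.00532). Of 36 nuclear-encoded respiratory chain genes 7 fell (19.4%, against 25.3%) and 3 rose (8.33%, against 14.8%). After rescaling 3 fell and 6 rose, so no direction held for this list. Without pair-fed liver 1, 2 fell, and 3 fell without ethanol liver 86 or pair-fed liver 2. Of 27 complement and coagulation genes 5 fell (18.5%, against 25.3%) and 1 rose (3.7%, against 14.8%), with 4 and 4 after rescaling. The 1 that rose was the contact factor F12 (1.56-fold, adjusted p = 0.0061). Without pair-fed liver 1 only 2 fell, and without ethanol liver 90 or pair-fed liver 9 there were 4 that rose. C9, the last complement component, was at 78, 83.2, 152 and 119 FPKM against 192, 243 and 225 FPKM (2.04-fold lower, adjusted p = 0.0069). Among 21 immediate early genes 7 fell (33.3%, against 25.3%) and 6 rose (28.6%, against 14.8%), with 4 lower without pair-fed liver 1 or 2. Egr1, a growth-induced transcription factor, was at 10.6, 5.44, 7.01 and 7.2 FPKM against 32.5, 19.3 and 21.1 FPKM (3.21-fold lower, adjusted p = 0.00114). Ccn1, a matricellular protein, fell 3.52-fold (adjusted p = 5.55e-04), and Gadd45b, a stress-induced gene, rose 1.81-fold (adjusted p = 0.00125).

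The title of the series names fibrosis, and genes of fibrosis changed in both directions. Markers of resting stellate cells rose in 9 of 14 (64.3%, against 14.8%), and in 5 without ethanol liver 86, pair-fed liver 1 or pair-fed liver 2. Lrat, which stores vitamin A as retinyl ester, was at 8.41, 5.05, 5.88 and 5.19 FPKM with ethanol and 1.57, 1.73 and 2.63 FPKM without (3.1-fold, log2 change 1.25 ± 0.19, SE, adjusted p = 0.00118). Hand2, a stellate cell transcription factor, was at 13.7, 19.8, 10.9 and 8.99 FPKM against 3.98, 4.49 and 4.94 FPKM (2.98-fold, adjusted p = 0.00216), and Rgs5, a pericyte gene, at 26.8, 40.0, 14.5 and 15.2 FPKM against 6.79, 6.84 and 6.85 FPKM (3.54-fold, adjusted p = 0.00444). Ethanol livers were above pair-fed livers in all 3.

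Of 18 markers of activated stellate cells and myofibroblasts 7 rose (38.9%, against 14.8%) and 5 fell (27.8%, against 25.3%). Without pair-fed liver 1, and equally without pair-fed liver 2, 4 rose and 4 fell. The 5 that fell were the contractile genes Acta2, Tagln, Tpm1 and Tpm2 and the protease inhibitor Timp1. Acta2 (chr19:34240336-34255585), smooth muscle actin and the standard myofibroblast marker, was at 2.18, 2.11, 1.55 and 1.11 FPKM against 16.7, 19.4 and 5.34 FPKM; pair-fed liver 9 was the lowest of its group, still above every ethanol liver (7.93-fold, log2 change -2.28 ± 0.37, SE, adjusted p = 0.00163). Tagln, transgelin, was at 6.97, 7.9, 6.74 and 4.71 FPKM against 39.8, 36.4 and 22.2 FPKM (4.99-fold, adjusted p = 2.41e-04), and Tpm1, a tropomyosin, at 7.47, 9.47, 6.92 and 6.49 FPKM against 18.9, 15.6 and 16.9 FPKM (2.26-fold, adjusted p = 6.91e-04). Timp1 was at 5.26, 2.95, 7.33 and 1.86 FPKM against 22, 11.2 and 7.07 FPKM, with overlap between ethanol liver 90 and pair-fed liver 9, and its call (adjusted p = 0.0255) was lost without ethanol liver 89 or 96 or pair-fed liver 1 or 2 (adjusted p = 0.0529 to 0.101). Among the 7 that rose Pdgfra, the receptor of a growth factor for fibroblasts, was at 3.07, 3.68, 2.2 and 2.55 FPKM against 0.631, 0.563 and 1 FPKM (3.93-fold higher, adjusted p = 7.09e-04). The others that rose were Lox, Mfap4, Gas6, Pdgfrb, Cd34 and Postn.

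Of 27 collagen and matrix genes 8 rose (29.6%, against 14.8%) and 4 fell (14.8%, against 25.3%). The 8 that rose were the collagens Col4a1, Col4a2 and Col18a1, the laminin Lamb1, and Thbs2, Dcn, Lum and Bgn. Collagens were thus among the genes that rose and among those that fell. Of the fibrillar collagens, Col1a1, Col3a1 and Col5a3 fell, while Col1a2, Col5a1 and Col5a2 were not called. Col1a1, of type I, was at 15, 19.4, 15.3 and 11.4 FPKM against 25.3, 21.6 and 34.7 FPKM (1.78-fold lower, adjusted p = 0.014), and Col3a1, of type III, at 16.4, 23.6, 18.4 and 11.3 FPKM against 30.1, 35 and 48.5 FPKM (2.17-fold lower, adjusted p = 0.00732). The other 2 that fell, named for being few, were Col5a3 (2.82-fold) and the non-fibrillar Col15a1, whose call was lost without ethanol liver 86, 89 or 96 or pair-fed liver 1, 2 or 9 (adjusted p = 0.0524 to 0.155). The small proteoglycans that sit on collagen fibrils rose: Dcn, decorin, was at 219, 260.1, 154 and 139 FPKM against 55.5, 60.2 and 73.4 FPKM (3.06-fold, adjusted p = 0.00108), Lum, lumican, at 41.6, 55.1, 23.7 and 27.9 FPKM against 6.03, 5.22 and 13.8 FPKM (4.45-fold, adjusted p = 0.00222), and Bgn, biglycan, at 106, 157, 80.6 and 80.8 FPKM against 40.8, 34.3 and 57.4 FPKM (2.41-fold, adjusted p = 0.00609). Thbs2, thrombospondin 2, was at 4.24, 3.51, 4.13 and 3.84 FPKM against 0.885, 0.701 and 1.14 FPKM (4.32-fold, adjusted p = 1.19e-04). Spp1, osteopontin, was at 153, 253, 282 and 141 FPKM against 241, 215 and 134 FPKM and was not called (log2 change 0.06 ± 0.30, SE, adjusted p = 0.897).

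Of 24 matrix remodelling and cross-linking genes 10 rose (41.7%, against 14.8%) and 5 fell (20.8%, against 25.3%). Without ethanol liver 96, pair-fed liver 1 or pair-fed liver 2, 3 fell. Mmp2, gelatinase A, was at 21.2, 23.9, 14.9 and 18.1 FPKM against 1.05, 0.964 and 3.14 FPKM; it rose 11.4-fold, and 19.4-fold without pair-fed liver 9 (adjusted p = 1.35e-04). Timp2, its inhibitor and activator, was at 23.3, 24.4, 16.2 and 18 FPKM against 5.52, 5.3 and 9.2 FPKM (3.07-fold, adjusted p = 8.62e-04), and Timp3, a matrix-bound inhibitor, at 18.6, 18.7, 13.3 and 15.1 FPKM against 4.72, 3.83 and 4.17 FPKM (3.87-fold, adjusted p = 1.12e-04). With Mmp7 these rose without overlap, so the inhibitors Timp2 and Timp3 moved opposite to Timp1. Besides Timp1, the proteases Mmp15 and Mmp19, the collagen chaperone Serpinh1 (2.46-fold, adjusted p = 0.00108) and the collagen processing enhancer Pcolce fell, the last not without ethanol liver 86 or 96 or pair-fed liver 1, 2 or 9 (adjusted p = 0.0651 to 0.118). In the TGF-beta pathway, the main profibrotic signal, 9 of 21 genes rose (42.9%, against 14.8%) and 2 fell (9.52%, against 25.3%). The number that rose was 13 after rescaling and 4 without pair-fed liver 1 or 2. The 9 were Tgfbr3, Ltbp3, Smad7, Skil, Tgfbr2, Tgfbi, Smad6, Tgfb3 and Bambi. The list does not sort members by whether they pass on or hold back the signal, so its count gives no direction of signalling. Tgfb1, the ligand, was at 9.98, 13.7, 7.64 and 7.5 FPKM against 5.95, 5.4 and 7.46 FPKM, without overlap but not called (log2 change 0.53 ± 0.21, SE, adjusted p = 0.0671); it was called after rescaling and without ethanol liver 90 or 96 (adjusted p = 0.0442 to 0.0461). Tgfbr3, a coreceptor, rose 2.14-fold (adjusted p = 0.00232), and Ltbp3, which anchors latent ligand, rose 2.25-fold (adjusted p = 0.0043). The 2 that fell were Smad3, which carries the signal to the nucleus (1.82-fold, adjusted p = 0.00396), and Inhba, an activin subunit, at 0.0783, 0.0247, 0.0595 and 0.0269 FPKM against 1.55, 1.47 and 1.57 FPKM (32.3-fold, adjusted p = 4.07e-05).

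**Figure D4:**
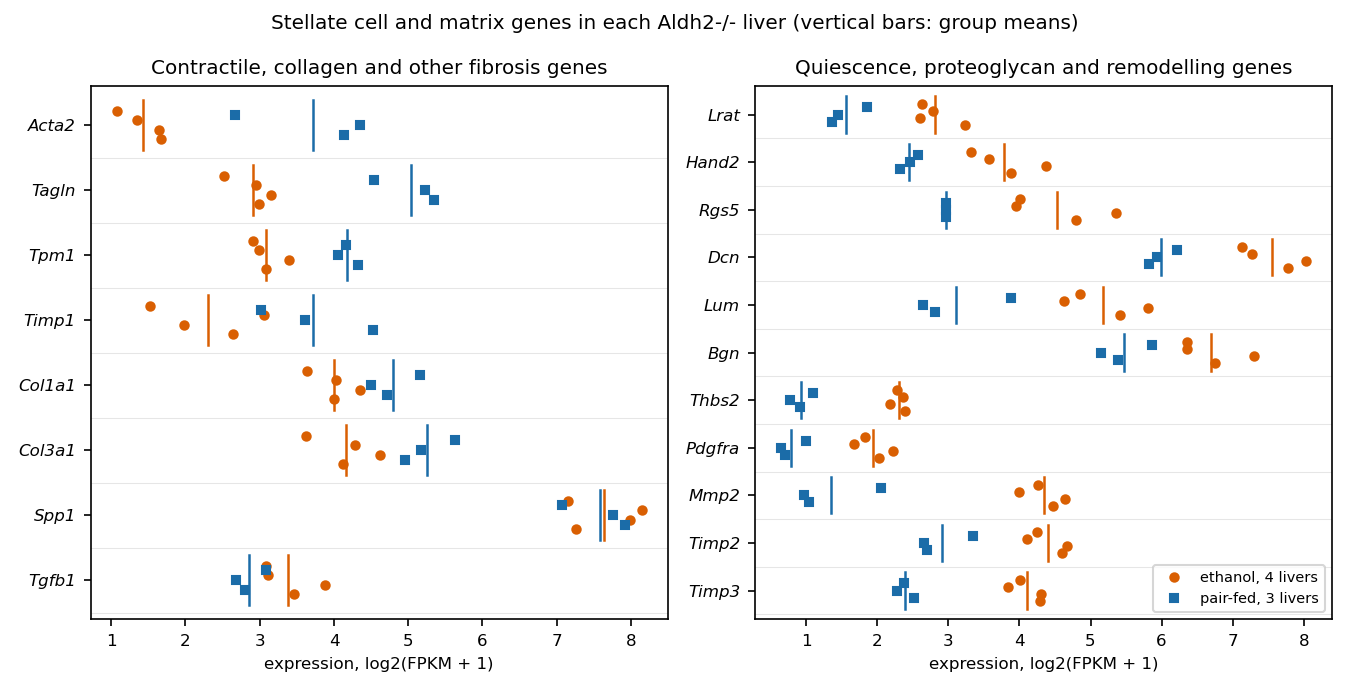
Expression, as log2(FPKM + 1), of stellate cell and matrix genes in each Aldh2-/- liver; circles are the 4 ethanol livers, squares the 3 pair-fed livers and vertical bars group means. Acta2, Tagln, Tpm1, Col1a1 and Col3a1 lie lower with ethanol, Spp1 and Timp1 overlap, and all genes on the right lie higher.

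The same diets were compared in WT livers, and the difference between both responses was tested in a fit of all 15 libraries. Mitochondrially encoded transcripts took 15.2 to 24.2% of summed FPKM in the 3 WT pair-fed livers, above the 6.7 to 13.6% of the 5 WT ethanol livers and the 6.9 to 10.8% of the Aldh2-/- pair-fed livers without overlap. The part of this share in the differences between genotypes was not tested. In the difference between responses an offset between the deposited tables that is the same in both genotypes cancels. Of 11157 genes 4134 were called (37.1%), 899 with a more positive response in Aldh2-/- livers (8.06%) and 3235 with a more negative one (29%). The median difference over all genes was -0.22 on the log2 scale, and after rescaling, which moved it to -0.01, 3040 genes were called, 1572 more positive and 1468 more negative. Differences below are read against -0.22. Aldh2 itself changed by 0.55 in Aldh2-/- and 1.12 in WT livers (difference -0.58 ± 0.15, adjusted p = 0.00949, and 0.188 after rescaling). Of 45 genes examined singly, 30 were called and 25 of them also after rescaling; the largest changes were picked on the same mutant livers, so a part of their difference may come from that choice.

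Of the 10 largest rises, 9 were larger in Aldh2-/- than in WT livers both before and after rescaling. Got1 changed by 5.06 on the log2 scale in Aldh2-/- livers and by 1.47 in WT livers, a difference of 3.59 ± 0.37 (SE, adjusted p = 4.39e-05). Eif4ebp3 changed by 4.28 and 1.05 (difference 3.23 ± 0.54, adjusted p = 6.37e-04), and Ddit4 by 4.35 and 0.99 (difference 3.36 ± 0.90, adjusted p = 0.0103). Cyp2b10 was the exception: its changes of 5.07 and 3.94 did not pass the test of their difference (1.14 ± 0.58, adjusted p = 0.134). Of the falls, Fgf21 changed by -5.44 in Aldh2-/- and -1.38 in WT livers (difference -4.07 ± 0.63, adjusted p = 3.96e-04), and Inhbe by -3.94 and -0.16 (difference -3.79 ± 0.45, adjusted p = 8.96e-05). The differences of Saa1 and Saa2 were called only before rescaling (adjusted p = 0.0459 and 0.0362, then 0.0803 and 0.064), and that of Car3 in neither (adjusted p = 0.149).

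Of the lipid synthesis genes examined singly, 4 had mean changes of opposite sign in the 2 genotypes, both as deposited and after rescaling. Hmgcs1 changed by -3.27 in Aldh2-/- livers and 0.24 in WT livers (difference -3.50 ± 0.43, adjusted p = 1.00e-04), Srebf1 by -1.16 and 0.50 (difference -1.67 ± 0.35, adjusted p = 0.00277), Fasn by -1.08 and 0.57 (difference -1.64 ± 0.29, adjusted p = 0.00103), and Acss2 by -0.93 and 1.01 (difference -1.94 ± 0.36, adjusted p = 0.00134). Hamp changed by 1.67 and -0.77 (difference 2.44 ± 0.25, adjusted p = 4.39e-05), from WT means of 4837 ± 418 FPKM pair-fed and 2846 ± 378 FPKM with ethanol (SD, n = 3 and 5). Cyp2e1 changed by 2.62 and 1.01 (difference 1.61 ± 0.52, adjusted p = 0.0246). All 6 of these were called after rescaling too. For Adh1 the difference of -0.83 ± 0.24 was called before rescaling (adjusted p = 0.0137) and not after it (adjusted p = 0.121).

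For 4 of the fibrosis genes the responses of the genotypes were not told apart. Col1a1 changed by -0.79 in Aldh2-/- and -0.75 in WT livers (difference -0.04 ± 0.42, adjusted p = 0.95), Col3a1 by -1.09 and -0.82 (difference -0.28 ± 0.42, adjusted p = 0.624), Acta2 by -2.28 and -1.15 (difference -1.13 ± 0.49, adjusted p = 0.0795) and Timp1 by -1.41 and -0.64 (difference -0.77 ± 0.51, adjusted p = 0.239). A p above the threshold does not show that the responses were equal. Tgfb1 differed, with 0.53 and -0.13 (difference 0.66 ± 0.24, adjusted p = 0.045), and so did the lipopolysaccharide coreceptor Cd14, with 0.93 and -0.22 (difference 1.15 ± 0.30, adjusted p = 0.00919). In cell division, the mean change of Cdca3 was negative in both genotypes, at -3.81 and -2.47 (difference -1.34 ± 0.36, adjusted p = 0.0101), as was that of Ccnb1, with -2.33 and -1.90 (difference -0.43 ± 0.48, adjusted p = 0.498).

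**Figure D5:**
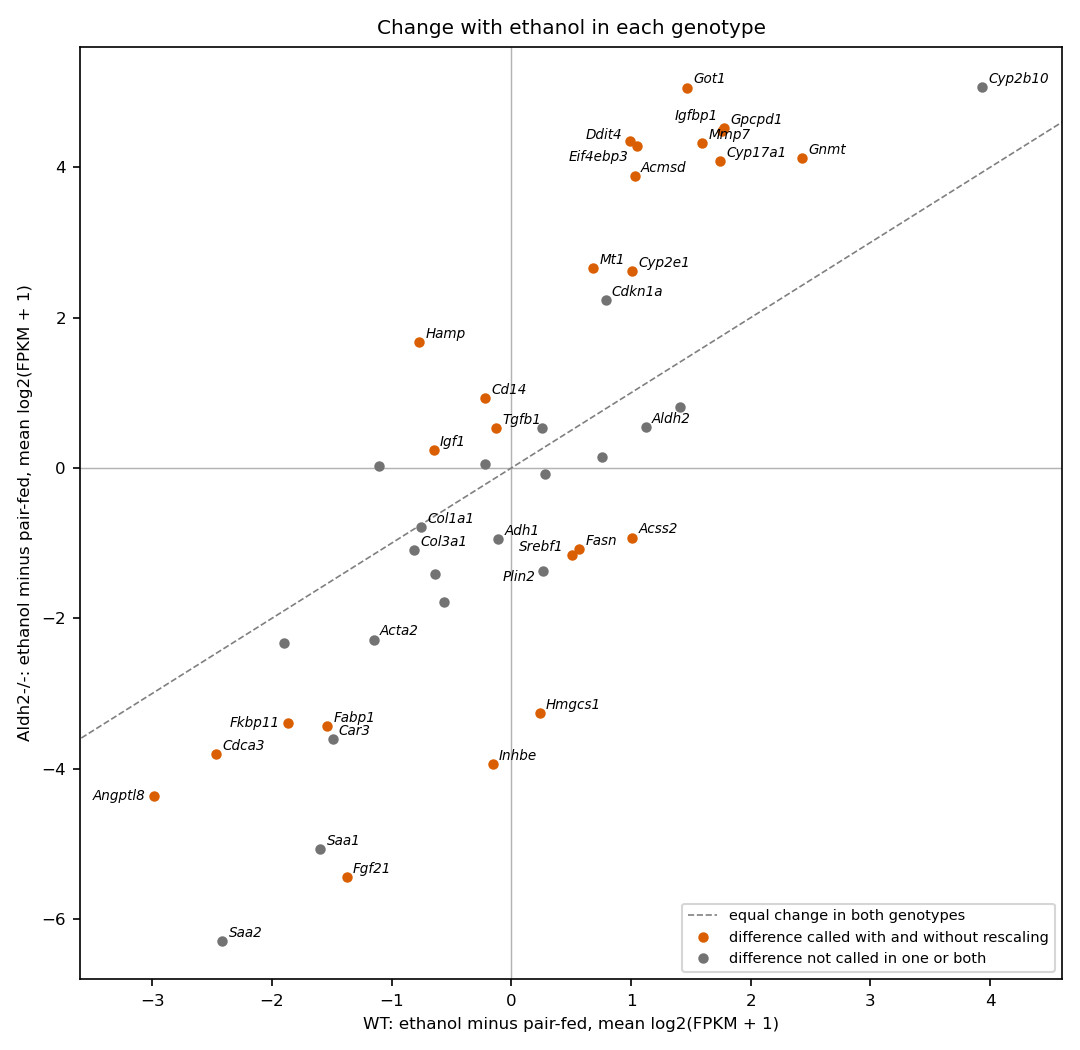
Mean log2(FPKM + 1) change with ethanol in WT livers (horizontal) and Aldh2-/- livers (vertical) for Aldh2, the largest changes and the other genes fixed for this comparison; orange points are the 25 genes whose difference between genotypes was called with and without rescaling, and the dashed line marks equal change. Most of the 10 largest rises lie far above the line and Hmgcs1 far below it, while Col1a1 lies on it.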

How the data were processed

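Total RNA of 15 whole livers was sequenced in read pairs of 150 bp. The deposited tables hold FPKM per gene; the submitters' processing notes name fastp, HISAT2 and HTSeq with mm10, without versions. Ethanol and pair-fed livers are in separate tables, joined here by gene symbol (23509 genes in both). Strand handling is not given in the sources used here. Low values came in whole-read steps (96.9% of 32590 within 0.01), which gave relative depths; FPKM were not turned into counts. Genes averaging 0.5 FPKM or more over the 7 Aldh2-/- livers were tested on log2(FPKM + 1) with limma 3.58.1 in R 4.3.3 (trended moderation, Benjamini-Hochberg adjusted p under 0.05), and differences between genotypes in 1 fit of 15 livers. The test was checked on simulated data. Named genes were the 10 largest rises and falls among called genes at 2 FPKM or more whose groups did not overlap, the 4 smallest p-values per list, and genes fixed for their role; others are said to be chosen after their values were seen. The comparison, gene lists and roles were chosen with earlier results of these data known. Several members that rose or fell against their list's majority were also named after their values were seen. Promoters are RefSeq's. Some genes that the rule names, 1 of the 10 largest falls among them, are not reported here. Samples were grouped by genotype and diet in the labels.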

Additional observations from a re-analysis of the deposited data

Results flagged for a closer look

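Among 232 genes checked for 1 ethanol liver of Aldh2-/- mice that stood apart from the other 3, 14 had one. Chance alone gives about 1 in 20 groups, so 14 of 232 is close to the number chance alone gives. The pair-fed group, with 3 livers, was too small to check. Ethanol liver 90 stood apart in 7 of them, and it was the liver with 18.2% mitochondrial transcripts. It was the highest of its group in Saa2 (58.6 FPKM) and in the cell division genes Cdca3 (7.80 FPKM), Ccnb2 (11.3 FPKM), Cdkn3 (6.91 FPKM), Mki67 (1.42 FPKM) and Nusap1 (2.06 FPKM), and the lowest in Oit3 (9.26 FPKM), a sinusoidal endothelial gene. In all 7 it was the ethanol liver nearest to the pair-fed livers, and in Nusap1 it lay above pair-fed liver 9. The cell division genes among them move together, so they are not independent cases. The part of the mitochondrial share of ethanol liver 90 in these values was not tested. Ethanol liver 96 stood apart in 4 genes: it had the highest Cyp2a5 (119 FPKM), Ghr (22.9 FPKM) and Acss3 (4.47 FPKM) and the lowest Rpl14 (177 FPKM). Ethanol liver 89 stood apart in 3: it had the lowest Nnmt (123 FPKM), the lowest Slc39a14 (23.5 FPKM), a zinc and iron importer, and the highest Krt8 (163 FPKM).

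The response to ethanol differed between genotypes in these genes by the test of the difference itself, given here as the log2 change in Aldh2-/- livers minus that in WT livers, beside a median of -0.22 over all genes. It was more positive in Aldh2-/- livers for Got1 (3.59), Ddit4 (3.36), Eif4ebp3 (3.23), Acmsd (2.86), Gpcpd1 (2.74), Igfbp1 (2.73), Mmp7 (2.73), Cyp17a1 (2.33) and Gnmt (1.69) among the largest rises. The same held for Hamp (2.44), Mt1 (1.98), Cyp2e1 (1.61), Cd14 (1.15), Igf1 (0.89) and Tgfb1 (0.66). It was more negative for Fgf21 (-4.07), Saa2 (-3.88), Inhbe (-3.79), Saa1 (-3.47), Fabp1 (-1.90), Fkbp11 (-1.52), Angptl8 (-1.38) and Cdca3 (-1.34) among the largest falls. In lipid and alcohol metabolism it was more negative for Hmgcs1 (-3.50), Acss2 (-1.94), Srebf1 (-1.67), Fasn (-1.64), Plin2 (-1.64) and Adh1 (-0.83). The differences of Saa1, Saa2, Adh1 and Plin2 were not called after median-ratio rescaling; the other 25 were.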

How the results depend on the processing

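The libraries were analysed under 11 other settings, and each liver was left out in turn. The 4568 calls between diets became 3062 to 4743 (1122 to 1812 higher, 1908 to 2931 lower) when 1 liver was left out, lowest without pair-fed liver 1 in total and without pair-fed liver 2 among higher genes. They became 3471 with the description numbers as a replicate block (1428 higher, 2043 lower). Same-numbered livers correlated at -0.323 to -0.012 and livers of different number at -0.216 to 0.38. So few pairs cannot show whether those numbers pair the livers. In no setting did a gene called both there and in the reported fit change direction. Library quality weights gave 5860 calls, a mean filter of 2 FPKM 3541. For the difference between genotypes the counts of more positive genes were 555 with that filter, 1572 after median-ratio rescaling and 1398 after quantile normalization, and of more negative genes 1468 and 1691 in the latter 2. The Aldh2 difference was 0.497 to 0.614 without 1 liver, with exact p of 0.0667 or 0.1, the smallest those designs allow. Values that were not called changed sign under some settings. The log2 change of Alb was 0.011 at a common sum, 0.038 after median-ratio rescaling, 0.050 with mitochondrial transcripts removed and 0.005 with quality weights, and -0.184 to 0.023 when 1 liver was left out. With quality weights Spp1 changed by -0.210 and Gdf15 by -0.246. Leaving out 1 liver gave -0.199 to 0.222 for Spp1, -0.285 to 0.226 for Gdf15, -0.086 to 0.955 for Cidec and -0.158 to 0.334 for Scd1. The genotype difference of Col1a1 was 0.012 (pseudocount 0.1), 0.235 (median ratio) and 0.295 (quantile), and that of Col3a1 0.002 and 0.067 in the last 2; without 1 liver they were -0.258 to 0.241 and -0.616 to 0.011. The same ranges were -1.15 to 0.327 for Cyp7a1 and -0.338 to 0.703 for Cidec, and Ccnb1 was at 0.439 with pseudocount 0.1. The cause was not tested. FPKM tables hold no read numbers, so counting error of low genes is not given.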
